A study of Homo sapiens with 6 samples.

Results

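The subject is 4325 bright array rows that carry no gene symbol, measured in PC3 cells, an established line grown from a bone metastasis of a human prostate carcinoma. Cultures were transiently transfected with a synthetic precursor of miR-130a (3 arrays) or with a negative control precursor (3 arrays), and the series describes 3 independent experiments. A row is a transcript cluster, the set of array probes that the maker of the Affymetrix Human Transcriptome Array assigned to one transcribed place in the genome. Rows were chosen by their measured brightness in the control arm: a row was taken when it had a log2 value on all 6 arrays, no gene symbol in the platform annotation used here, and a mean of at least 7 over the 3 negative control arrays. Of 67528 rows with values, 42204 had no symbol, and the 4325 bright rows are 10.2% of those. A row without a symbol is unnamed here, which does not mean that it reads no gene.

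MicroRNAs guide silencing proteins to messenger RNAs that pair with bases 2 to 8 of the microRNA, called the seed, and the paired messengers are then degraded or translated less. Transcripts can also change through the genes that such targets control. Transcript clusters outside the usual gene catalogue include small structural RNAs, transcripts of repeated or duplicated sequence, mitochondrial RNAs, unspliced or alternative parts of known genes and long noncoding RNAs, and the annotation does not say which of these a row is. The transfected microRNA is encoded by MIR130A, at chr11:57641198-57641286 on the plus strand of GRCh38.p14. Its RefSeq hairpin is shown because the supplied microRNA is one of its mature arms. The capitals mark hsa-miR-130a-5p, and hsa-miR-130a-3p is the other arm. The labels do not say which arm the precursor was made to deliver.
MIR130A hairpin: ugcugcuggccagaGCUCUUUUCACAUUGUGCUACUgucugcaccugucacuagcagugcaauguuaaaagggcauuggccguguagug

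The deposited values are log2 summaries after normalization between arrays, and a level is the brightness of a row's own probes, so levels do not rank RNAs by abundance. RNA came from whole cultures, and fewer cells or less RNA per cell cannot be told apart. Epithelial markers were bright in controls (KRT8 9.16, KRT18 9.61, KRT19 10.5, EPCAM 7.97, with CDH1 at 6.35 and the mesenchymal filament gene VIM at 10.5), and the prostate secretory genes KLK2 and KLK3 lay at 4.99 and 5.88. Leukocyte, fibroblast and endothelial markers lay between 2.30 (LUM) and 6.83 (COL1A1). Over the 4325 bright rows, Pearson's r between any pair of miR-130a arrays was 0.9956 to 0.9971. Negative controls 1 and 2 correlated at 0.9912, and negative control 3 correlated with them at 0.9845 and 0.9786. Negative control 3 was the control array farthest from the median of the 3 controls in 2207 of the rows (51.0%), against 870 for negative control 1 and 1248 for negative control 2.

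Control means of the bright rows ran from 7 to 14.15, with a median of 8.02 and quartiles of 7.41 and 8.98. Of the rows, 49.6% lay below 8. At the upper end, 105 rows reached 12 and 40 reached 13. The brightest row, TC01002863 (row IDs are given without their common ending), read 14.17, 14.23 and 14.06 on the control arrays and 14.15 on each miR-130a array. TC14001108 followed at 14.00 ± 0.09 (SD, n = 3) in controls and 13.96 ± 0.01 with miR-130a. The next 5 rows, with IDs on chromosomes 2, 4, 7 and 9, held the same 6 values, 14.03, 14.15 and 13.76 in controls and 13.94, 13.97 and 13.92 with miR-130a. TC08001305 stood at 13.86 ± 0.08 and 13.83 ± 0.01. In each of these rows the arms overlapped.

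Rows with the same value on all 6 arrays were frequent, and such rows are no independent measurements. In all, 344 bright rows shared every value with at least 1 other row of the table, and the 4325 rows held 4065 distinct profiles. Of the repeated profiles, 34 spanned more than 1 chromosome. The most repeated one had 35 rows, with IDs on chromosomes 1, 2, 4, 9, 14, 15, 18, 21, 22 and Y and in unplaced sequence. It read 7.21, 7.04 and 7.52 in controls and 7.14, 7.44 and 7.31 with miR-130a, and the arms overlapped. A profile of 17 rows on chromosomes 5 and 22 was at 7.11 ± 0.42 (SD, n = 3) and 7.20 ± 0.23. A profile of 11 rows, all on chromosome 16, was at 8.98 ± 0.16 and 8.99 ± 0.12. Only 1 bright row, TC01003143 on chromosome 1, had the same values as a row with a single symbol. That symbol was RNU1-10P, a pseudogene of the spliceosomal U1 RNA, and the shared level was 11.37 ± 0.06 in controls and 11.31 ± 0.02 with miR-130a.

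Among the 22 profiles held by 5 or more bright rows, limma called 0 at an adjusted p below 0.05. An unadjusted p below 0.05 was found in 11 of them, against 10.3% of all rows and 20.3% of the bright rows. Their differences, miR-130a minus negative control, ran from -0.71 to 0.40, and 14 were negative, where 58% of all rows had a negative difference. The lowest belonged to 8 rows on chromosomes 1, 6, 9 and 15, which read 10.13, 9.25 and 9.51 in controls and 8.95, 8.88 and 8.94 with miR-130a. The arms did not overlap, but the control arrays were spread over a wider range than the gap between the arms (adjusted p = 0.248, limma). A profile of 7 rows on chromosomes 1 and 6 had the same order of control arrays, 8.20, 7.42 and 7.67 in controls and 7.35, 7.32 and 7.22 with miR-130a (adjusted p = 0.435, limma). In both profiles negative control 1 was the highest array.

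**Figure D1:**
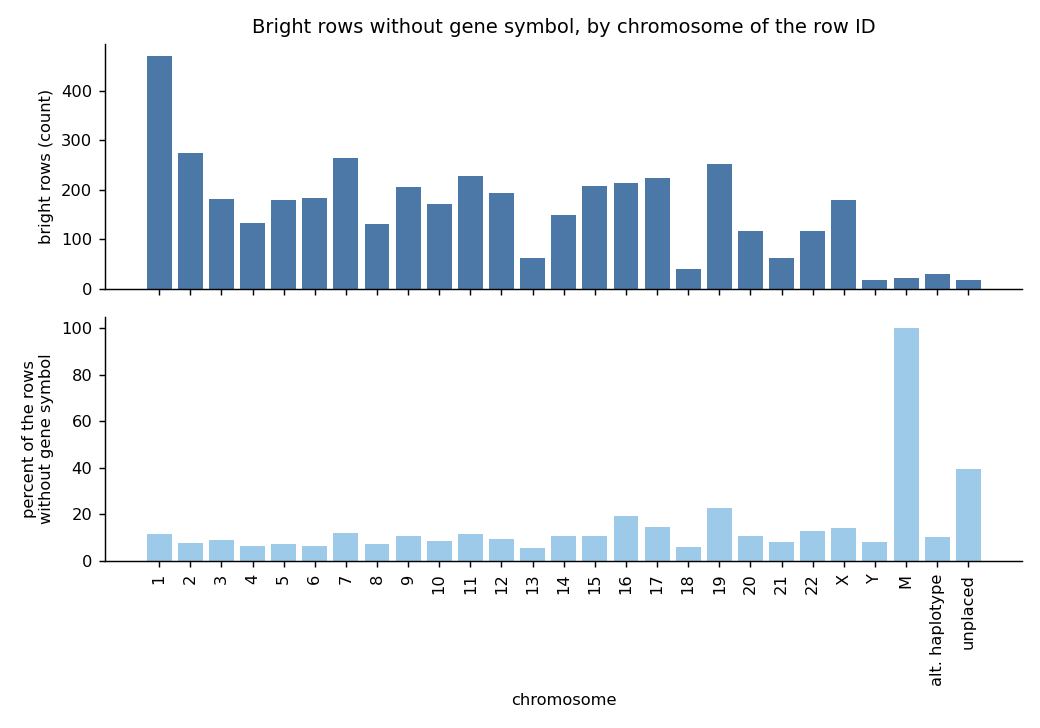
Number of bright rows without gene symbol by the chromosome in the row ID (upper bars, count) and their share of all rows without symbol on that chromosome (lower bars, percent). Chromosome 1 holds the most rows (471), chromosome 19 has the largest share among chromosomes 1 to 22 and X (22.6%), and all 22 mitochondrial rows are bright.

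By the chromosome number in the row ID, chromosome 1 held 471 bright rows, chromosome 2 held 275, chromosome 7 held 264 and chromosome 19 held 252. Chromosomes 18, 13 and 21 held 39, 61 and 61. As a share of the rows without symbol on the same chromosome, bright rows were most frequent on chromosome 19 (22.6% of 1114) and chromosome 16 (19.5% of 1099), and least frequent on chromosomes 13 (5.49%), 18 (5.94%) and 6 (6.38%). Across the 23 chromosomes from 1 to 22 and X, this share had a Pearson correlation of 0.695 with the share of rows with 1 symbol that reached 7; the points share the same arrays, and the value is a description. The Y chromosome held 17 bright rows, alternative haplotypes held 30, and unplaced or unlocalised sequence held 17 of 43 rows without symbol (39.5%). Of the 17 rows with a Y chromosome ID, 3 had the same values as a row on another chromosome. Whether the 17 rows read RNA made from the Y chromosome was not tested.

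The table's mitochondrial rows were all bright and all without symbol, 22 of 22. The mitochondrial genome encodes ribosomal RNAs, transfer RNAs and subunits of the respiratory chain; which of these a row reads is not given by the files. Their median was 13.07, 13.23 and 12.83 on negative controls 1, 2 and 3, and it was 12.92, 12.95 and 12.99 in the treated arm. The mitochondrial rows supplied 12 of the 40 bright rows at or above 13. Of the 22 differences 19 were negative, where 58% of all rows had a negative difference. The 22 differences had a median of -0.084 and a range from -0.27 to 0.06. limma called 0 of the 22 rows (lowest adjusted p = 0.396), and 2 had an unadjusted p below 0.05, against 10.3% of all rows. The arms did not overlap in 3 of the 22 rows, against 16.9% of all rows.

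**Figure D2:**
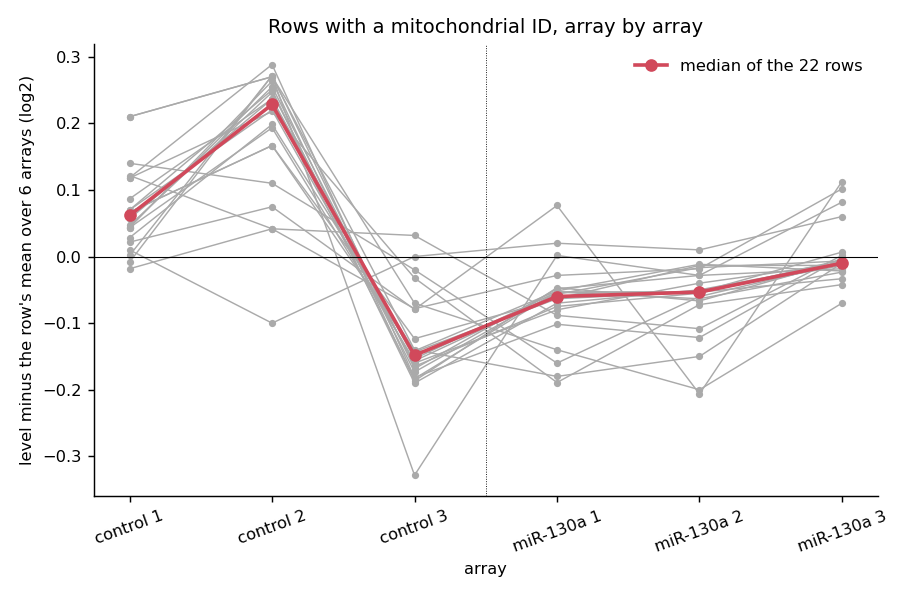
Level of each of the 22 mitochondrial rows on each array, minus that row's mean over the 6 arrays (log2, vertical axis); grey lines are rows and the red line is their median. Negative control 3 is the lowest control in 21 rows and negative control 2 the highest in 19, while the 3 miR-130a arrays lie close together.

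The control arrays differed from each other more than the arms did in these rows. Negative control 3 was the lowest control in 21 of the 22 rows and the lowest of all 6 arrays in 15, and negative control 2 was the highest control in 19. The median SD was 0.186 among controls and 0.037 among miR-130a arrays. Without negative control 3 the median difference was -0.187, and limma still called 0 of the rows, where 0.686% of all rows were called in that fit. An unadjusted p below 0.05 was then found in 13 of the 22 rows. The share of all rows at that unadjusted threshold was not counted for this fit, so nothing is read from the 13.

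The comparison of arms asks which of the bright rows change when miR-130a is supplied. It was fitted with limma over all 67528 rows, with adjustment over all of them. At an adjusted p below 0.05, 79 of the 4325 bright rows were called, 44 higher (1.02%) and 35 lower (0.809%) with miR-130a. That is 1.83%, where 0.663% of all rows with values were called (0.446% higher and 0.218% lower) and 2.42% of the 8094 rows with 1 symbol and a control mean of at least 7 (1.62% higher and 0.803% lower). The share among bright rows without symbol therefore lay between that of the whole table and that of equally bright rows with a symbol. Rows without symbol below 7 were called in 0.222% of cases. An unadjusted p below 0.05 was found in 876 bright rows (20.3%), in 10.3% of all rows and in 22.4% of bright rows with 1 symbol. The arms did not overlap in 1302 bright rows (30.1%), against 16.9% of all rows and 40.1% of bright rows with 1 symbol. The median difference of the bright rows was -0.026 (quartiles -0.107 and 0.056), beside -0.020 over all rows and -0.018 over bright rows with 1 symbol. The median within-arm SD was 0.093 for bright rows without symbol and 0.063 for bright rows with 1 symbol.

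The negative control arrays chose the rows and also enter the difference, so rows whose control values happened to be high are favoured, and with them falls. Choosing the rows by their mean over all 6 arrays gave 49 rises and 29 falls among 4293 rows, and choosing them by the miR-130a arrays gave 60 rises and 21 falls among 4285. Of the bright rows, 193 had a miR-130a mean below 7, and 14 of these were called. Of the rows without symbol that were below 7 in controls, 153 reached 7 with miR-130a, and 16 of these were called. Over all rows with values 0.663% were called. The 193 and the 153 rows were picked for arm means on opposite sides of 7, which favours rows that differ. Nothing is therefore read from their counts of called rows. The 4 bright rows nearest the limit had control means of 7.0002 to 7.0022 and miR-130a means of 7.05, 6.38, 7.12 and 7.15. The 4 rows just below it had control means of 6.9988 to 6.9998 and miR-130a means of 7.12, 6.86, 7.19 and 7.08. Centring the arrays on their medians left 26 rises and 10 falls, with 0.351% of all rows called.

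**Figure D3:**
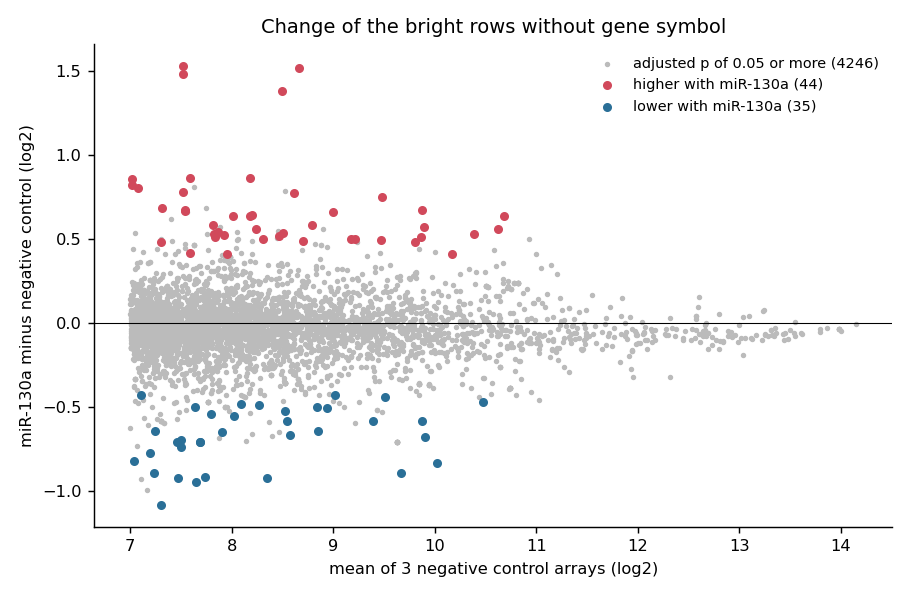
Difference of arm means (miR-130a minus negative control, log2, vertical axis) against the mean of the 3 negative control arrays (log2, horizontal axis) for the 4325 bright rows without gene symbol. Red and blue points are the 44 rows higher and the 35 rows lower with miR-130a at an adjusted p below 0.05 (limma); none of them lies at or above 11.

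The count of called rows changed when single arrays were left out. Without negative control 1 it was 7 (0.0652% of all rows were called in that fit), and without negative control 2 it was 10 (0.0963%). Without miR-130a 1, 2 or 3 it was 4, 5 and 4 (0.0296%, 0.0592% and 0.0267%). Without negative control 3 it was 82 (0.686%), of which 53 were among the 79 with the same sign, and falls then outnumbered rises, 48 to 34. Other fits moved it too. It was 391 with array weights (143 rises and 248 falls, beside 3.55% of all rows), 227 with a mean-variance trend and robust shrinkage (124 and 103, 1.67%), 205 when only rows with a mean of at least 5 were fitted (112 and 93, 3.36% of the rows fitted) and 501 with a mean of at least 7 (241 and 260, 14.1%). It was 29 when only rows without symbol were fitted (19 and 10, 0.145%) and 82 when rows of equal values counted once (47 and 35, 0.700%). The balance of rises and falls thus turned with the setting. The 79 rows held 78 distinct profiles, and their arms did not overlap in any case. Rises ran from 0.41 to 1.53 on the log2 scale with a median of 0.59, and falls from -0.43 to -1.08 with a median of -0.65. A change of at least 1.5-fold was reached by 23 of the rises and 20 of the falls (0.994% of the bright rows, against 0.342% of all rows and 1.05% of bright rows with 1 symbol), and a change of at least 2-fold by 4 rises and 1 fall (0.116%, against 0.0503% and 0.173%).

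Called rows were found on 21 of the 23 chromosomes from 1 to 22 and X. Chromosome 11 had 6 rises and 3 falls, chromosome 1 had 6 and 3, and chromosome 12 had 5 and 2. On chromosomes 3 and 8 the called rows were all falls, 3 of 182 and 4 of 131 bright rows, and on chromosome 6 all 4 of 183 were rises. limma called 0 rows on chromosome 14 (28 of 149 at an unadjusted p below 0.05) and 0 on chromosome 18 (13 of 39). By level, 1.63% of the rows between 7 and 8 were called, 2.15% between 8 and 9, 2.42% between 9 and 10 and 2.19% between 10 and 11. limma called 0 of the 211 rows at or above 11; an unadjusted p below 0.05 was found in 18 of the 106 rows between 11 and 12 and in 2 of the 105 above.

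The 4 rises that reached 2-fold lay on chromosomes 11 and 17. TC17002746 read 7.57, 7.52 and 7.47 on the control arrays and 9.04, 8.87 and 9.23 on the miR-130a arrays. Each miR-130a array was above every control array , and the row rose 2.89-fold (difference 1.53, SE 0.097, adjusted p = 0.00332, limma). TC17001795 read 7.53, 7.49 and 7.54 in controls and 9.01, 8.79 and 9.21 with miR-130a. It rose 2.80-fold (difference 1.48, SE 0.108, adjusted p = 0.00509, limma), and like TC17002746 it was lowest on the second and highest on the third miR-130a array. TC11003312 read 8.68, 8.75 and 8.56 in controls and 10.22, 10.19 and 10.16 with miR-130a, a rise of 2.88-fold (difference 1.52, SE 0.071, adjusted p = 0.00131, limma). TC11003311, the row numbered just before it, read 8.45, 8.50 and 8.55 in controls and 9.87, 9.95 and 9.81 with miR-130a, a rise of 2.60-fold (difference 1.38, SE 0.066, adjusted p = 0.00131, limma). These 4 rows passed under each of the 16 alternative settings, with an adjusted p of at most 0.0474 (limma).

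**Figure D4:**
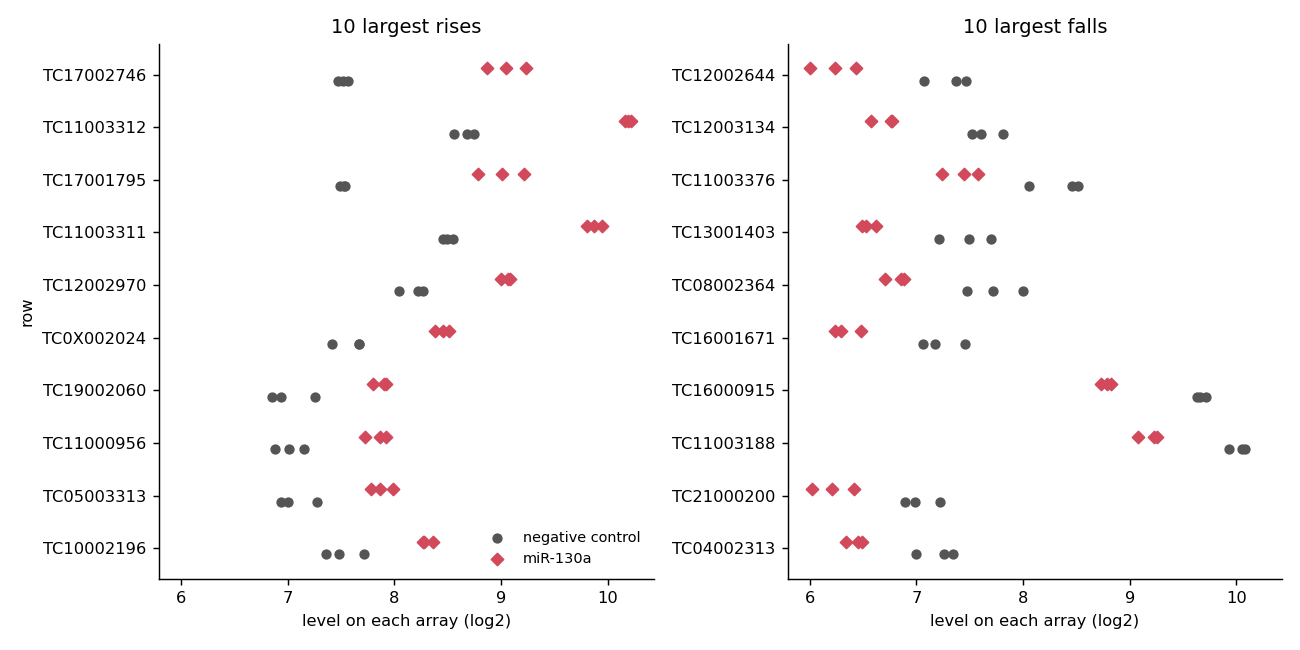
Level on each array (log2, horizontal axis) of the 10 called rows with the largest rise (left) and the 10 with the largest fall (right), with negative control arrays as grey circles and miR-130a arrays as red diamonds. Rows were chosen among called rows whose arms did not overlap, so the 2 arms lie apart in each of the 20. TC17002746, TC11003312, TC17001795 and TC11003311 have the widest gaps.

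Row numbers give a place for some of these rows. Within a chromosome, rows with 1 symbol run in a first and a second ascending series; 98.3% of 20904 steps between such rows ascended in RefSeq's gene order (GRCh38.p14, used for order only), and 99.6% of 14362 rows with a known strand were on the plus strand in the first series and on the minus strand in the second. Higher numbers form a long stretch with almost no symbols, whose order could not be checked. In a shorter last block above it, 11% of the rows had no symbol. The first 2 series held 1828 bright rows, of which 18 were called (0.985%). The stretch without symbols held 2390 bright rows, of which 59 were called, 35 higher and 24 lower (2.47%). The last block held 38 bright rows, of which 2 were called (5.26%). These 2 rows, TC04002952 and TC04002953, are adjacent in number and had nearly the same value on each array. The share of the last block therefore rests on little more than 1 measurement. Over all rows with values 0.663% were called. The median control level was 7.92, 7.97 and 8.05 in the first series, the second series and the stretch without symbols, and the median SE of a difference was 0.083, 0.084 and 0.077.

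TC17001795 stood 1 number before ERN1, the IRE1 sensor of unfolded proteins, and 1 number after ICAM2, an adhesion molecule gene. The ERN1 row read 7.52, 7.50 and 7.46 in controls and 8.82, 8.62 and 8.76 with miR-130a (difference 1.24, SE 0.072, adjusted p = 0.00244, limma), and ICAM2 differed by -0.01 (adjusted p = 0.995). ERN1 was the only row with 1 symbol on chromosome 17 that was called at 2-fold or more. On chromosome 11 those rows were the interstitial collagenase MMP1, at 7.69, 7.69 and 7.54 in controls and 9.21, 9.14 and 9.13 with miR-130a (difference 1.52, SE 0.070), and the stromelysin MMP10, at 5.17, 5.07 and 5.09 and 6.58, 6.48 and 6.64 (difference 1.46, SE 0.069). TC11003311, TC11003312 and TC17002746 belong to the stretch without symbols, so their distance from these genes is not known here. These genes were chosen after their values were seen, and none of their names is given to a row without symbol.

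The other 6 of the 10 largest called rises were smaller and lay between 1.72-fold and 1.82-fold. TC12002970 on chromosome 12 was at 8.18 ± 0.12 in controls (SD, n = 3) and 9.05 ± 0.04 with miR-130a. It rose by 0.87 with an SE of 0.078 (adjusted p = 0.0102, limma). TC0X002024 on the X chromosome went from 7.59 ± 0.15 to 8.45 ± 0.06 and TC19002060 on chromosome 19 from 7.02 ± 0.21 to 7.87 ± 0.06. TC11000956, in the first series of chromosome 11, went from 7.01 ± 0.13 to 7.84 ± 0.10. Its neighbours in number were YAP1, a growth-promoting transcriptional coactivator (difference 0.20, adjusted p = 0.272, limma), and BIRC2, an inhibitor of cell death (difference 0.46, adjusted p = 0.158, limma). TC05003313 and TC10002196 rose by 0.80 and 0.78. Each of these 6 rows missed the threshold under 5 to 7 of the 16 alternatives, among them leaving out any 1 of the miR-130a arrays, with adjusted p up to 0.165.

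The largest fall was that of TC12002644 on chromosome 12, which read 7.47, 7.37 and 7.07 in controls and 6.003, 6.43 and 6.24 with miR-130a. The lowest control array stayed above the highest miR-130a array, and the row fell 2.11-fold (difference -1.08, SE 0.140, adjusted p = 0.0273, limma). It missed the threshold under 7 of 15 alternatives, with adjusted p up to 0.153. TC16000915 on chromosome 16 had less spread. It read 9.72, 9.63 and 9.66 in controls and 8.73, 8.82 and 8.79 with miR-130a, 1.85-fold lower (difference -0.89, SE 0.062, adjusted p = 0.00509, limma). It passed under 14 of 16 alternatives and missed the threshold without miR-130a 1 (adjusted p = 0.0536) and without miR-130a 3 (adjusted p = 0.0582). Its neighbours in number, 1 step away on each side, were the ribosomal protein gene RPS15A and SMG1, a kinase of nonsense-mediated decay, and they differed by -0.02 and -0.005 (adjusted p = 0.976 and 0.999, limma).

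TC11003188 on chromosome 11 read 10.08, 10.05 and 9.93 in controls and 9.23, 9.25 and 9.07 with miR-130a, 1.78-fold lower (difference -0.83, SE 0.078, adjusted p = 0.0112, limma). It was the brightest of the 10 largest falls among called rows. The other 7 were between 1.70-fold and 1.93-fold lower, with control means from 7.03 to 8.34 and adjusted p from 0.0149 to 0.0463 (limma): TC12003134, TC11003376, TC13001403, TC08002364, TC16001671, TC21000200 and TC04002313. Of the 10 largest called falls, 7 had a miR-130a mean below 7, so these rows met the brightness limit only through the control arm. Each of the 7 rows listed by ID missed the threshold under 6 to 8 of the alternatives, with adjusted p up to 0.222. TC11003188 missed it under 5, among them leaving out any 1 of the miR-130a arrays, with adjusted p up to 0.084 (limma). TC21000200 stood between RNA5SP492, a pseudogene of the ribosomal 5S RNA, and UBASH3A, neither of which was called (differences -0.14 and -0.05).

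Among the 18 called rows of the first 2 series, 2 had a called neighbour of the same direction, a share not counted for other rows. The first is TC17001795 beside ERN1. The second is TC02002906 on chromosome 2, 1 number away from COL6A3, a chain of the matrix protein collagen VI. TC02002906 read 7.84, 7.95 and 7.92 in controls and 7.39, 7.26 and 7.12 with miR-130a (difference -0.65, SE 0.083, adjusted p = 0.0273, limma), and COL6A3 differed by -0.52 (adjusted p = 0.0403, limma). TC02002906, COL6A3 and the rows of the next paragraph other than TC11003188 lie outside the naming rule and were chosen after their values were seen.

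The brightest called rows lay between 10 and 11 in controls. TC10002092 rose from 10.68 ± 0.11 (SD, n = 3) to 11.32 ± 0.04, TC11002708 from 10.62 ± 0.04 to 11.18 ± 0.06, TC12002398 from 10.39 ± 0.10 to 10.93 ± 0.03 and TC22000288 from 10.17 ± 0.04 to 10.58 ± 0.05. TC08001887 fell from 10.47 ± 0.04 to 10.00 ± 0.01, and TC11003188 is described above. The adjusted p of these rows was 0.0112 to 0.043 (limma). Rows TC04002952 and TC04002953, adjacent in number on chromosome 4, rose by 0.67 each, from 7.54 ± 0.14 and 7.54 ± 0.13. Their values were nearly the same on each array. Rows TC01000220 and TC01002270 on chromosome 1 held identical values and count as 1 measurement. They went from 7.83, 7.66 and 7.57 in controls to 6.92, 6.98 and 7.03 with miR-130a (difference -0.71, SE 0.083, adjusted p = 0.0205, limma).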

How the data were processed

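The authors deposited 1 table of log2 expression values for 6 arrays; RMA in Affymetrix Expression Console made them, per the submitters' processing notes, without versions. The log2 scale was taken from the range of the values, and no source used here names the genome build behind the row IDs. Of 70753 rows, 3225 were empty on all arrays. Medians of the arrays over all rows were 4.96 to 5.08. RNA was labelled with the WT PLUS kit, per the labels' protocols. Symbols came from GEO's platform annotation, updated through Entrez identifiers.

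The arms were compared with limma 3.58.1 in R 4.3.3 (lmFit and eBayes, two-sided, Benjamini-Hochberg over 67528 rows, threshold 0.05), and every adjusted p is from it. SE is limma's moderated SE of the log2 difference, and fold is 2 to the power of the difference. Named rows are the 10 largest rises and 10 largest falls among called rows whose arms did not overlap, the 8 brightest rows, and 4 on each side of the limit of 7. The rows and lists were chosen with earlier results of these data known. Alternatives were other choices of rows, normalizations, filters, variance models, a replicate block, and leaving out each array. Arrays of the same replicate number did not deviate together, which cannot show whether they came from the same experiment. Tested on simulated data with these 67528 rows, the fit recovered 69.0% of rows changed 1.5-fold and 98.0% of rows changed 2-fold, with 4.55% false calls. The simulated noise was independent between rows and had the same spread in both arms. In the bright rows the median SD was 0.111 in controls and 0.052 with miR-130a, so these rates hold for the simulated data only. The number of arrays limits the precision; scanner files and detection calls were not used here.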

Additional observations from a re-analysis of the deposited data

How the results depend on the processing

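The count of called bright rows (79) moved with most choices. The median difference (-0.0257) was negative under each choice tried for it, from -0.0417 for control means of at least 9 to -0.00435 with median centring, which left 2097 positive and 2228 negative differences against 1770 and 2555. The count was 391 with array weights, 227 with eBayes's trend and robust options, 205 when only rows with a mean of at least 5 were fitted, 501 with a mean of at least 7, 36 with median centring and 29 when only rows without symbol were fitted. It was 43 when a call also needed 1.5-fold, which can only lower it (0.342% of all rows). Control means of at least 8 and 9 gave 44 of 2178 and 20 of 1064 rows, so there the set shrank along with the count. Leaving out 1 array gave 4 to 82. With the replicate block it was 10 (4 rises and 6 falls), where 0.0844% of all rows were called. Same-numbered arrays did not deviate together (correlations of -0.0346, -0.0108 and 0.0382), and not every array correlated best with its own number. Whether same-numbered arrays came from the same experiment cannot be told from these values. Other choices, among them counting rows of equal values once (82, chosen after seeing the data), stayed within 1.5 times. Of the 20 named rises and falls, which are the largest among called rows only, 4 passed under each setting run and none reversed. The 20 rows were chosen with arms that did not overlap, so leaving out 1 array could not reverse any of them. Causes were not tested.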

Other observations

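Noncoding RNAs that do carry a symbol, most of them small structural RNAs, were read from a list of 28 genes. A row with a single symbol was found for 20, and 14 of these were at 7 or above in controls. limma called 0 of the 20, and 7 had an unadjusted p below 0.05, where 10.3% of all rows and 22.4% of bright rows with 1 symbol did. Of the 20 differences 17 were negative, with a median of -0.134. A negative difference was found in 58% of all rows and in 56.6% of bright rows with 1 symbol. RN7SL1, the RNA of the signal recognition particle, was at 14.03 ± 0.09 (log2, SD, n = 3) in controls and 13.99 ± 0.00 with miR-130a, and RN7SK, a regulator of transcription elongation, at 13.57 ± 0.10 and 13.56 ± 0.02. The most negative differences were in rows below 7, the vault RNA VTRNA1-1 at 3.81 ± 0.16 and 3.21 ± 0.24 (difference -0.60, adjusted p = 0.153, limma) and the Y RNA RNY5 at 6.56 ± 0.36 and 6.04 ± 0.16 (difference -0.52, adjusted p = 0.353, limma). The Y RNA RNY3 went from 12.01 ± 0.08 to 11.68 ± 0.05 (difference -0.32, adjusted p = 0.126, limma) and RMRP, the RNA of an RNA-processing ribonuclease, from 12.54 ± 0.09 to 12.36 ± 0.02 (difference -0.18, adjusted p = 0.435, limma).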
